A study of Mus musculus with 8 samples.

Results

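Macrophages and other leukocytes of the late fetal small intestine were followed through 38 genes, led by Csf1r, which encodes the receptor for the macrophage growth factor CSF1. All probe sets listed with exactly 1 gene symbol were taken when that symbol was on the list, which gave 65 of the 45101 probe sets of the array and at least 1 for each of the 38 genes. Of these, 52 probe sets of 35 genes were bright enough for the test across genes, and Cd163, Csf3r and Cd84 were not. The samples were small intestines of mouse fetuses at 18.5 days post coitum (dpc), 4 from Plagl2 knockouts and 4 from wild-types, each hybridised to 1 Affymetrix MOE430 2.0 array. The Plagl2 product is a DNA-binding zinc finger protein of the PLAG family, and by its title the series concerns chylomicrons, the particles in which the gut exports dietary fat. The labels used here give no strain, litter or form of the mutant allele, and they name no isolation of a cell type from the intestine. Genotypes were taken from the titles, since the extraction protocol names wild-type tissue for every one of the 8. Plagl2 itself (1417517_at) gave signals of 3 to 11 in knockouts, against 697 to 824 in wild-types.

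CSF1R is a receptor tyrosine kinase of the cell surface. Its ligands CSF1 and IL-34 keep monocytes and most tissue macrophages alive and growing, and in the gut wall macrophages clear dying cells and settle before birth. The macrophage program depends on PU.1, the product of Spi1, and its usual readouts include F4/80 (Adgre1), the C1q chains of complement, Fc receptors with their adaptors Tyrobp and Fcer1g, and the leukocyte phosphatase CD45 (Ptprc).

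Array medians of the signal were 36 to 42. Wild-type replicate 3 and knockout replicate 4 differed from the rest of their groups in several genes below, so counts are given with and without them. Xist signal was high in knockout replicates 2 and 3 (1828 and 1410) and at most 47 in the other 6 arrays, so Xist signal was not balanced between genotypes. RNA integrity, read as the log2 of 3' over 5' signal in control probe sets, averaged 0.017 to 0.098 in knockouts and -0.055 to 0.0066 in wild-types, and a fit that includes it is given below.

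Csf1r signal fell in the knockout intestine by all 3 of its probe sets. From log2(signal + 16), the fall was 5.19-fold by the brightest, and 5.44-fold and 3.80-fold by the others. By plain signal, knockouts held 16.6% of the wild-type mean by 1419873_s_at and 22.9% by 1423593_a_at. The brightest, 1419872_at, gave 628, 678, 663 and 858 in knockout replicates 1 to 4, against 3714, 4114, 2874 and 4306 in wild-type replicates 1 to 4. No knockout came near a wild-type, and the lowest wild-type was replicate 3. The means were 707 ± 103 in knockouts and 3752 ± 635 in wild-types (SD, n = 4 each), so that knockouts held 18.8% of the wild-type signal. On the log2(signal + 16) scale, the fold change of knockouts over wild-types was -2.38 ± 0.14 (SE, 95% interval -2.67 to -2.08, limma, adjusted p = 7.88e-07). Of 12838 genes tested, 64 (0.499%) had a log2 fold change of -2.3 or lower, and Csf1r ranked 57th from the lowest.

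The other Csf1r probe sets gave the same order. Probe set 1419873_s_at, whose suffix marks probes that may also match related transcripts, gave 194, 174, 180 and 202 in knockouts, against 1200, 1244, 659 and 1424 in wild-types. Its log2 fold change was -2.44 ± 0.20 (SE, limma, adjusted p = 9.12e-06). Probe set 1423593_a_at gave 133, 132, 96 and 105 in knockouts, against 446, 539, 302 and 752 in wild-types. Its log2 fold change was -1.93 ± 0.23 (SE, limma, adjusted p = 0.000152). All 3 were called lower, as were 6.7% of all probe sets tested, where 12% were called in either direction. The groups did not overlap by any of the 3, and wild-type replicate 3 was the lowest wild-type in each. In bulk RNA, fewer cells of a type and less RNA per cell cannot be told apart.

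**Figure D1:**
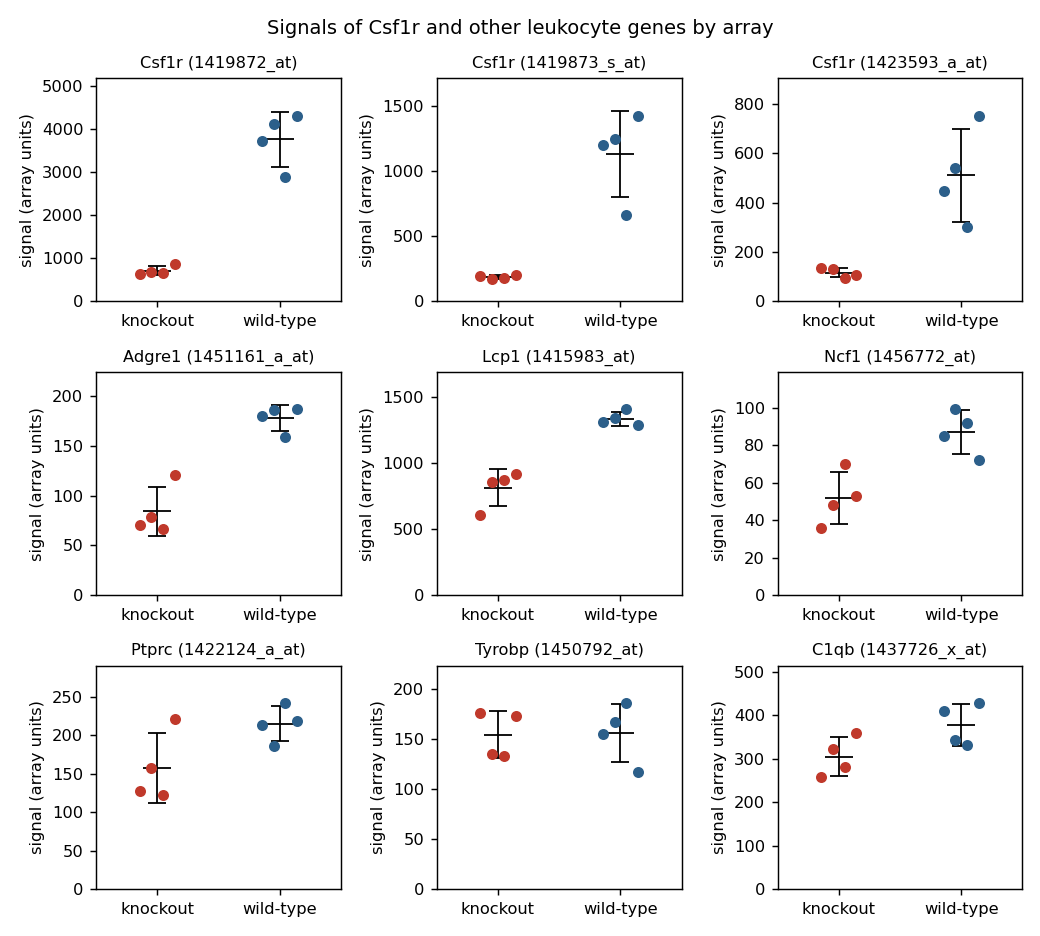
Signal of each array (points, linear axis from 0) for the 3 Csf1r probe sets and for 6 other genes, with knockouts left of wild-types and bars showing the mean and SD of 4 arrays. Csf1r knockouts lie at 628 to 858 and wild-types at 2874 to 4306 by the brightest probe set, while Tyrobp groups lie on top of each other.

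The ligands of the receptor showed no such difference. Csf1 (1460220_a_at) gave 98, 141, 74 and 133 in knockouts, against 117, 124, 106 and 103 in wild-types. The log2 fold change was -0.04 (95% interval -0.43 to 0.35, limma, adjusted p = 0.91), and the other tested Csf1 probe sets had -0.29 and -0.06. Il34 (1431920_a_at) was dim, with 42, 32, 31 and 21 in knockouts, against 32, 34, 23 and 34 in wild-types. The difference was 0.01 in log2 (95% interval -0.43 to 0.46, limma, adjusted p = 0.979). The knockouts spread across the wild-types for both genes. These 2 intervals leave room for differences of up to about 0.46 in log2 either way. The interval of the Csf1 probe set at -0.29 was wider, from -0.73 to 0.15.

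Among the 35 genes tested, 4 were called lower and 0 higher at an adjusted p under 0.05 (limma), which is 11.4% lower. Over all genes tested, 8.5% were called lower and 6.6% higher, 15.1% in either direction. The 4 were Csf1r, Adgre1, Lcp1 and Ncf1. Without Csf1r, 3 of 34 (8.82%) were lower, a share near that of all genes, and 13 of the 34 had an unadjusted p under 0.05. For the 34 other genes the log2 fold change was below 0 in 29 (85.3%), against 46.7% of all genes, with a median of -0.28, against 0.03 over all genes tested. The groups did not overlap in 7 of the 34 (20.6%), all with knockouts lower, against 11.1% of all genes. None of the 34 had all knockouts above all wild-types, against 8.88% of all genes. Most of the list thus lay a little under wild-type, by amounts that mostly did not pass the test.

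Adgre1, which encodes the macrophage surface protein F4/80, was the next lowest member after Csf1r on the log2(signal + 16) scale. By plain signal, knockouts held 47.5% of the wild-type mean for Adgre1, and 46.1% for Ncf4 and 47.0% for Itgax, both dimmer and not called. Its signals were 71, 79, 67 and 121 in knockouts, against 180, 186, 159 and 187 in wild-types. Knockouts averaged 84.5 ± 24.8 and wild-types 178 ± 13.0 (SD, n = 4 each), with a log2 fold change of -0.98 ± 0.16 (SE, limma, adjusted p = 0.00205). Knockout replicate 4 was the highest knockout and still lay under all wild-types.

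Lcp1 encodes L-plastin, an actin-bundling protein of leukocytes. Probe set 1415983_at gave 603, 852, 870 and 916 in knockouts, against 1304, 1340, 1403 and 1282 in wild-types. The log2 fold change was -0.72 ± 0.12 (SE, limma, adjusted p = 0.00226), and the other Lcp1 probe set had -0.65 (adjusted p = 0.0218). Here wild-type replicate 3 was the highest wild-type, unlike for Csf1r.

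Ncf1 encodes p47phox, an organiser of the phagocyte NADPH oxidase. Probe set 1456772_at gave 36, 48, 70 and 53 in knockouts, against 85, 99, 92 and 72 in wild-types. Its change in log2 was -0.62 ± 0.18 (SE, limma, adjusted p = 0.0417), while the other Ncf1 probe sets had -0.61 and -0.19 without a call. The call ended without any 1 of 6 arrays, that is any wild-type but replicate 4 or any knockout but replicate 3 (adjusted p = 0.0638 to 0.121).

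When the RNA integrity measure was added to the model, only Csf1r of the 35 genes was called lower. Its log2 fold change was then -2.40 (limma, adjusted p = 0.000146). Adgre1 had -0.86 (adjusted p = 0.0922), Lcp1 -0.41 (adjusted p = 0.165) and Ncf1 -0.36 (adjusted p = 0.497). Over all genes, 4.43% were called lower in that fit. The integrity measure was higher in every knockout than in any wild-type, so its part and that of genotype cannot be told apart. The SE also grew in that fit, for Csf1r from 0.14 to 0.22.

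**Figure D2:**
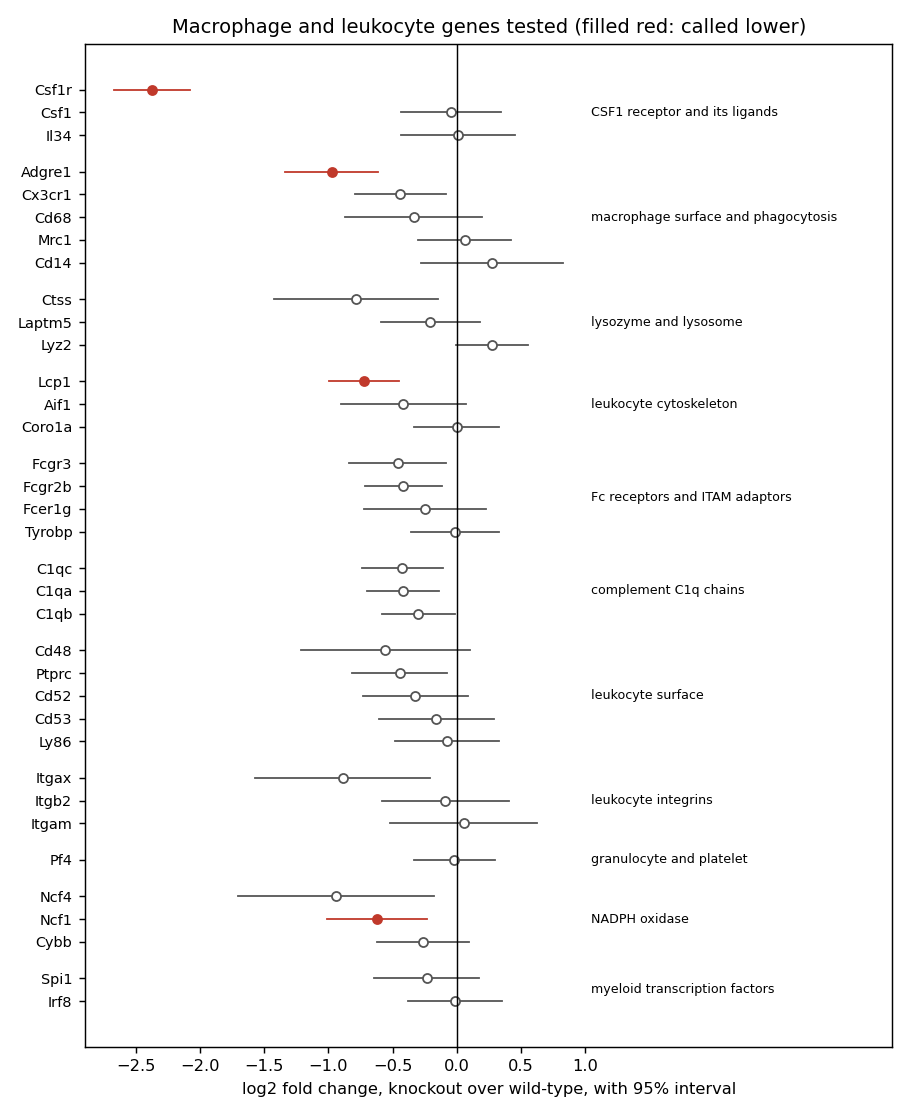
Log2 fold change, knockout over wild-type, of the 35 genes tested, with 95% intervals from the limma fit and genes grouped by role. Csf1r at -2.38 stands far left of all others, whose intervals reach no lower than -1.70, and filled red points mark the 4 genes called lower.

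No other member came close to Csf1r in size. The 95% interval of Csf1r ended at -2.08, and the lowest bound of any of the 34 others was -1.70, for the dim gene Ncf4. The difference was also measured within each array, as Csf1r minus 1 other gene on the log2(signal + 16) scale, for 4 genes of different roles. Csf1r minus Ptprc was 1.88 to 2.29 in knockouts and 3.49 to 4.35 in wild-types, a difference of -1.93. Csf1r minus Adgre1 was 2.67 to 3.03 in knockouts and 4.05 to 4.41 in wild-types, a difference of -1.40. Against Tyrobp the difference was -2.37 and against C1qb -2.08, again without overlap. Each gave an exact two-sided permutation p of 0.0286, the smallest that 4 against 4 arrays allow, and 0.0286 after Benjamini-Hochberg adjustment over the 4 comparisons. Thus Csf1r was lower by more than each of these 4 genes, in 4 of 4 knockouts. With 4 arrays a genotype, no correlation between Csf1r and the other genes was computed.

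**Figure D3:**
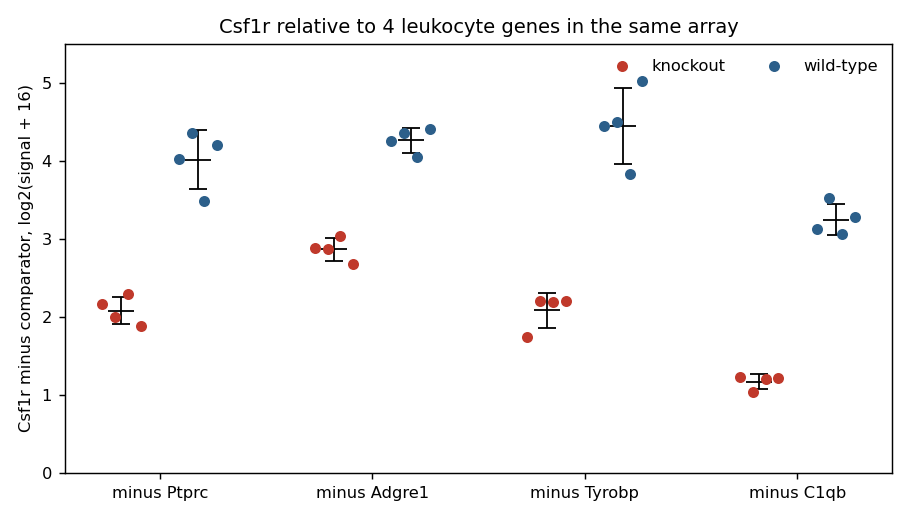
Csf1r minus each of 4 leukocyte genes in the same array, on the log2(signal + 16) scale, for knockout (left, red) and wild-type arrays (right, blue), with the mean and SD of 4 arrays. The groups are apart in all 4 comparisons, with differences of -1.40 for Adgre1 to -2.37 for Tyrobp.

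Ptprc, which encodes CD45 on all nucleated blood cells, gave 128, 158, 123 and 221 in knockouts, against 214, 186, 242 and 219 in wild-types. Knockout replicate 4 lay inside the wild-type range and the other knockouts lay under it. The log2 fold change was -0.44 ± 0.17 (SE, limma, adjusted p = 0.122), and without knockout replicate 4 it was -0.60 (limma, adjusted p = 0.0158). Among the other leukocyte surface genes, Cd52 (-0.32), Cd53 (-0.16), Cd48 (-0.56) and Ly86 (-0.08) did not pass. Cd84 had signals of 10 to 26 in knockouts and 4 to 22 in wild-types and was not tested.

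The C1q chains, which start the classical complement pathway and are made by macrophages, had log2 fold changes of -0.42 (C1qa), -0.30 (C1qb) and -0.42 (C1qc). All 3 missed the threshold (limma, adjusted p = 0.0575, 0.179 and 0.0863). C1qb (1437726_x_at) gave 258, 323, 280 and 359 in knockouts, against 409, 344, 331 and 428 in wild-types. The other C1qb probe sets had -0.23 and -0.28, with all knockouts below all wild-types and no call. C1qa gave 174 to 236 in knockouts and 262 to 303 in wild-types, without overlap. C1qc gave 123 to 177 in knockouts and 181 to 248 in wild-types, also without overlap.

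Tyrobp, the adaptor DAP12 that passes on signals of myeloid receptors, had overlapping groups. It gave 176, 135, 133 and 173 in knockouts, against 155, 167, 186 and 117 in wild-types (log2 fold change -0.01, 95% interval -0.35 to 0.33, limma, adjusted p = 0.976). Fcer1g, the shared gamma chain of Fc receptors, had -0.24 (limma, adjusted p = 0.532). The IgG receptor genes Fcgr3 (-0.46, adjusted p = 0.117) and Fcgr2b (-0.42, adjusted p = 0.073) had no overlap between genotypes and no call, Fcgr3 being called without wild-type replicate 3 (-0.57, adjusted p = 0.0483).

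The other macrophage surface genes did not follow Adgre1 past the threshold. Cd68, a lysosomal glycoprotein of macrophages, gave 28, 53, 18 and 44 in knockouts, against 50, 61, 33 and 47 in wild-types. The log2 fold change was -0.34 (95% interval -0.87 to 0.20, limma, adjusted p = 0.433). Mrc1, the mannose receptor, gave 131 to 192 in knockouts and 125 to 200 in wild-types (0.06, limma, adjusted p = 0.851). Cx3cr1, the receptor for fractalkine, had -0.44 (limma, adjusted p = 0.109) and Cd14, the lipopolysaccharide co-receptor, 0.27 (limma, adjusted p = 0.549). The other Cx3cr1 probe set had -0.10 (limma, adjusted p = 0.879). Cd163, a haemoglobin scavenger receptor, had signals of 1 to 30 in knockouts and 4 to 34 in wild-types and was not tested.

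The lysosomal protease gene Ctss gave 747, 759, 891 and 1003 in knockouts, against 1815, 1943, 652 and 1988 in wild-types. Wild-type replicate 3 lay under all knockouts, while the other wild-types lay above them. The log2 fold change was -0.78 (limma, adjusted p = 0.113), and without wild-type replicate 3 it was -1.17 (limma, adjusted p = 4.82e-05). Lyz2, the lysozyme of macrophages and neutrophils, gave 192, 186, 207 and 251 in knockouts, against 174, 161, 152 and 190 in wild-types. Its log2 fold change was 0.28 (95% interval -0.00 to 0.56, limma, adjusted p = 0.202), the highest of the list by brightest probe sets, with Cd14 next at 0.27. Laptm5, a lysosomal membrane protein of blood cells, had -0.20 (limma, adjusted p = 0.515).

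Spi1, which encodes PU.1, gave 37, 34, 44 and 62 in knockouts, against 60, 56, 59 and 42 in wild-types. The difference was -0.24 in log2 (95% interval -0.64 to 0.17, limma, adjusted p = 0.477). Irf8, a partner of PU.1 in monocyte development, had -0.01 by its brightest probe set (limma, adjusted p = 0.972). Its other probe set, 1448452_at, gave 271, 292, 381 and 276 in knockouts, against 182, 244, 202 and 291 in wild-types (0.39, 95% interval 0.05 to 0.74, limma, adjusted p = 0.14). Of 10 members with over 1 tested probe set, 8 had all of them below 0, and the exceptions were Irf8 and Laptm5, where 1 probe set had 0.25. The leukocyte integrins Itgam (0.05) and Itgb2 (-0.09) lay near 0. Itgax, the CD11c chain of dendritic cells and some macrophages, had -0.89 (limma, adjusted p = 0.0925) and was called without knockout replicate 3 (-1.14, adjusted p = 0.0265). That array was the highest knockout for Itgax (60, the others 9 to 36). Leaving it out widens the difference by construction, so that call is no support for the gene.

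Of the oxidase genes, Cybb, the catalytic subunit gp91phox, had -0.26 (limma, adjusted p = 0.354). The other Cybb probe sets had -0.13 and -0.42 without a call. Ncf4, the p40phox subunit, had -0.94 (limma, adjusted p = 0.11), with signals of 29, 6, 5 and 54 in knockouts, against 58, 41, 54 and 51 in wild-types. Without knockout replicate 4, Ncf4 was called at -1.28 (adjusted p = 0.0135). Aif1, the macrophage calcium-binding protein IBA1, had -0.42 (limma, adjusted p = 0.272) and, without knockout replicate 4, -0.63 (adjusted p = 0.048). Coro1a, an actin regulator of leukocytes, had -0.00 by its brightest probe set (limma, adjusted p = 0.998) and -0.26 by the other tested one (limma, adjusted p = 0.442). Pf4, a chemokine of platelets that some macrophages also express, had -0.02 (limma, adjusted p = 0.955). Csf3r, the receptor of granulocytes for G-CSF, had signals of 9 to 28 in knockouts and 13 to 38 in wild-types and was not tested.

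Knockout replicate 4 often gave the highest signal of its group among these genes. It was the highest knockout in 20 of the 34 genes other than Csf1r, where the other knockouts were highest in 4 to 6. Its array median was also the highest, 42, against 36 to 39 in the other knockouts. The share of all genes highest in that array was not counted, so whether this is a trait of leukocyte genes was not tested. Without knockout replicate 4, 7 of 36 genes tested were called lower, adding Ptprc, C1qa, Aif1 and Ncf4 and losing Ncf1, against 8.03% of all genes. Without wild-type replicate 3 there were 5 of 35, with Ctss and Fcgr3 and without Ncf1, against 10.3% of all genes. Without both arrays there were 10 of 36, against 10.8% of all genes, and Csf1r then had -2.59. These arrays were picked with their values in these data known, and leaving out the highest knockout and a low wild-type widens differences by construction, so the larger counts are no support for the added genes. In that fit all 3 C1q chains were called, C1qa at -0.49, C1qb at -0.43 and C1qc at -0.55. Csf1r was among the genes called in every one of these fits.

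**Figure D4:**
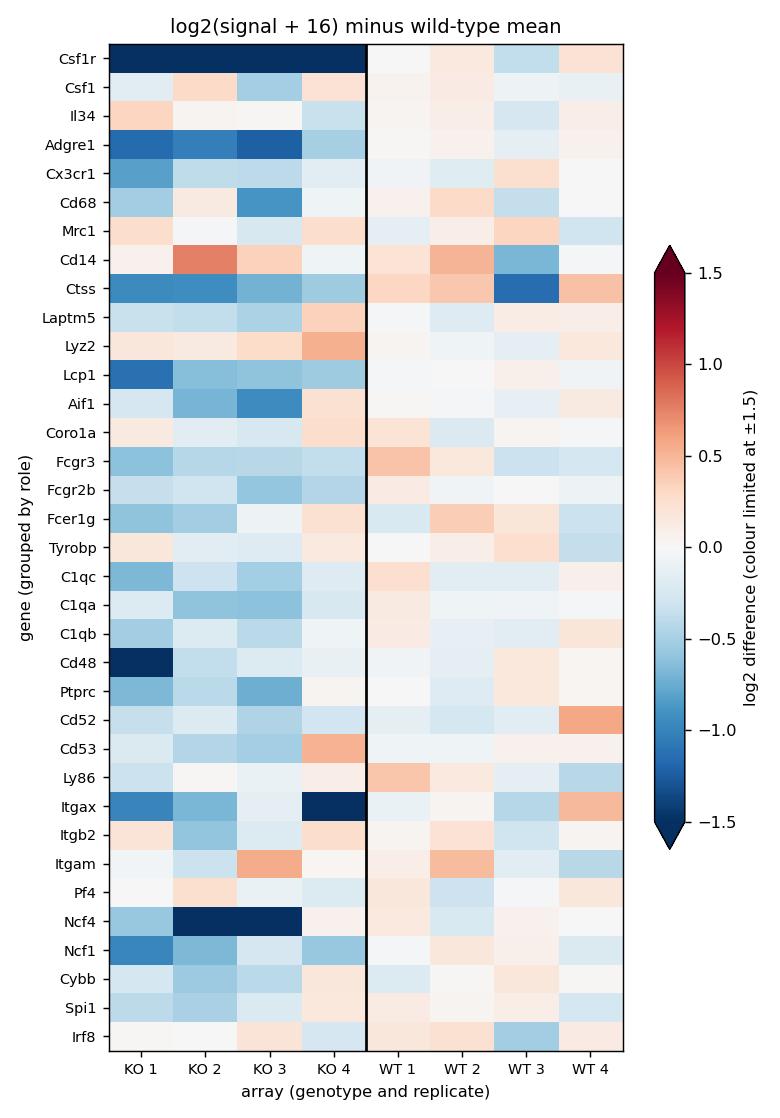
Difference of each array's log2(signal + 16) from the wild-type mean, for the 35 genes tested (rows, by role) in 4 knockouts (left) and 4 wild-types (right), with colour limited at 1.5 either way. Csf1r is dark blue in all 4 knockouts, most other rows are pale, and knockout replicate 4 is less blue than the other knockouts in many rows, though not for Itgax.

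Cell type markers were set beside these values. The 9 macrophage markers other than Csf1r had summed signals of 1081 to 1528 in knockouts and 1582 to 1712 in wild-types, and none of them was listed at 0. Their mean log2 signal was 6.85 to 7.38 in knockouts and 7.426 to 7.498 in wild-types, while that of 7 leukocyte markers was 7.09 to 7.64 in knockouts and 7.45 to 7.65 in wild-types, overlapping through knockout replicate 4. The part of a change in macrophage number in the Csf1r result was not tested. For the counts of markers that follow, the shares over all genes tested were 8.5% lower and 6.6% higher. Of 8 neutrophil markers, 4 were tested and 0 called. S100a8, a neutrophil calcium-binding protein, gave 138, 40, 57 and 264 in knockouts, against 21, 39, 82 and 55 in wild-types, highest in knockout replicate 4 (0.91 in log2, limma, adjusted p = 0.233), and S100a9 had 0.81 (adjusted p = 0.422). The 5 T cell markers with a probe set had signals of at most 23 in any array, under the filter, and 1 of 5 B cell and 1 of 7 mast cell markers was tested, without a call (Ighm 0.04 and Cpa3 0.41 in log2). Of 6 endothelial and 5 smooth muscle markers 0 were called, with 0 and 2 at an unadjusted p under 0.05 (Tek -0.25, Esam -0.20, Myh11 0.51 and Cnn1 0.61 in log2 had the smallest p). Of 3 megakaryocyte genes tested 1 was higher, the platelet receptor chain Gp1bb at 1.30, and the erythroid gene Alas2 had 0.64 without a call. Of 6 epithelial markers 2 were higher and 1 lower, Krt20 at 2.55, Krt8 at 0.52 and Krt18 at -1.02.

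Fetal enterocytes, the absorptive cells that take up and digest whole proteins before weaning, have a set of uptake and lysosome genes that earlier results of these data gave as lower in knockouts. The list of 15 was chosen with that known, so its lower level in knockouts was fixed in advance. Of these, 13 were lower and 0 higher, beside 8.5% and 6.6% of all genes tested, with a median log2 fold change of -1.46. Its mean log2 signal was 9.26 to 9.54 in knockouts and 10.75 to 11.36 in wild-types, with wild-type replicate 3 at 10.75 and the other wild-types at 11.25 to 11.36. Csf1r was also lowest there among wild-types, with a log2 value of 11.50, against 11.86 to 12.08 in the other wild-types. Among knockouts the order differed by the brightest Csf1r probe set. Replicate 4 was the highest for it (9.77, the others 9.33 to 9.44) and the lowest for the enterocyte list (9.26). By that probe set, Csf1r was highest in knockout replicate 4 as were the other members, whose mean log2 signal was 7.11 there and 6.81 to 6.86 in the other knockouts. Not all Csf1r probe sets gave this order: 1423593_a_at gave 133, 132, 96 and 105 in knockout replicates 1 to 4. Leukocyte lists differed in how they set wild-type replicate 3 apart. Members other than Csf1r summed to 6156 there and 7635 to 7715 in the other wild-types. The 16 other macrophage genes tested summed to 2126 there and 2824 to 3015 in the other wild-types. A single bright gene made up most of the gap in each of these sums. Ctss, a member, gave 652 there, against 1815 to 1988 in the other wild-types. Mertk, of the other macrophage genes, gave 568 there, against 1068 to 1174. By mean log2 signal, wild-type replicate 3 was still the lowest wild-type for members other than Csf1r and for the other macrophage genes. The 7 leukocyte markers were instead lowest in wild-type replicate 2 (7.45, and 7.54 in replicate 3). The 9 macrophage markers had 7.426 in wild-type replicates 3 and 4 alike. They summed to 1600.0 in wild-type replicate 3, inside the range of 1582 to 1712 of the other wild-types. Whether the genes of the enterocyte list are particular to the epithelium, or share a source with Csf1r, was not tested.

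**Figure D5:**
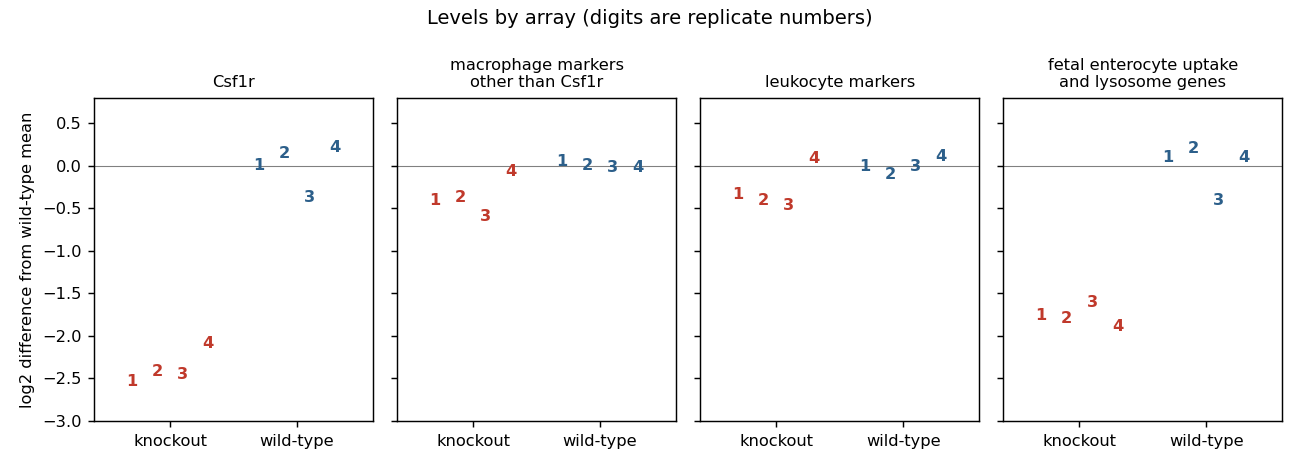
Log2 difference of each array from the wild-type mean for Csf1r and for the mean of 3 gene lists, with digits giving the replicate number, knockouts left and wild-types right. Csf1r and the fetal enterocyte list are low in all knockouts and lower in wild-type replicate 3 than in the other wild-types. The enterocyte list was chosen with its lower values in knockouts known, so its low level there was fixed in advance. The macrophage and leukocyte lists differ less, and knockout replicate 4 lies near the wild-types.

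Further genes of the same biology were read from lists made with earlier results of these data known. For all counts of these lists, the shares over all genes tested were 8.5% lower and 6.6% higher. Of 20 other macrophage genes, 16 were tested, 2 were lower and 0 higher, a share near that of all genes, with a median log2 fold change of -0.25. Hpgds, the haematopoietic prostaglandin D synthase, gave 28, 18, 5 and 32 in knockouts, against 92, 65, 97 and 108 in wild-types, and fell by 1.59 on the log2 scale (limma, adjusted p = 0.00168). Gas6, a bridging ligand of the TAM receptors in the uptake of dying cells, had -0.82 (limma, adjusted p = 0.0127). Of 10 genes of CSF1R signalling tested, 2 were lower and 1 higher, beside 8.5% and 6.6% of all genes. Pik3cd, the leukocyte PI3-kinase subunit p110 delta, had -0.72 and Stat3 -0.47, while Cbl, the ubiquitin ligase that turns over activated CSF1R, had 0.40.

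Of 11 transcription factors with known roles in macrophages, 4 were lower and 2 higher, where 8.5% and 6.6% of all genes were. Tfec gave 559, 585, 611 and 576 in knockouts, against 1603, 1753, 1766 and 1687 in wild-types, with a log2 fold change of -1.52 ± 0.08 (SE, limma, adjusted p = 4.58e-07). Cebpb had -0.94, Cebpa -0.81 and Maf -0.56. These factors also act outside macrophages, Cebpa and Cebpb in epithelia among others. Those called higher, named after their values were seen, were Klf4 (0.93), also a factor of differentiated gut epithelium, and Nr1h3 (0.79), the sterol receptor LXR alpha.

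Of 9 chemokine and receptor genes tested, 1 was higher and 3 lower, where 6.6% and 8.5% of all genes were. Ccl9 gave 524, 357, 369 and 562 in knockouts, against 110, 156, 149 and 156 in wild-types, with a log2 fold change of 1.55 (limma, adjusted p = 9.53e-05). Cx3cl1, the ligand of Cx3cr1, gave 94, 120, 131 and 77 in knockouts, against 263, 318, 250 and 306 in wild-types (-1.32, limma, adjusted p = 0.000186). The chemokine receptor gene Ccr1 (-0.57) and the eosinophil attractant Ccl24 (-1.21) were also lower. Ccl24 was dim, with 23, 22, 14 and 8 in knockouts, against 22, 49, 99 and 92 in wild-types. Its groups overlapped (limma, adjusted p = 0.0352).

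Promoter windows were available for 28 of the 38 genes, 33 windows of 250 bases before and 50 after a start, from RefSeq on GRCm38.p6. Csf1r, Adgre1 and Spi1 were among the genes without a window and could not be searched, so nothing is said of their promoters. The letters GAGGAAGT, a site of the type that PU.1 binds, were searched on both strands and lay in 4 windows (12.1%), those of C1qc, Cd53, Ctss and Pf4, against 3.2% of all 32851 windows. None of the 4 genes was called. The PLAG1 consensus, the known binding site of the PLAG family, was added after the values were seen and lay in 2 windows (6.06%), those of Irf8 and Lcp1, against 19.2% of all windows. Those shown were chosen for the members they belong to: Lcp1 as the only called gene with a match, and C1qc and Pf4 as matches to the PU.1 type. Capitals mark the match, which lies on the opposite strand in each, so that ACTTCCTC is read as GAGGAAGT.
Lcp1, chr14:75131044-75131100, plus strand: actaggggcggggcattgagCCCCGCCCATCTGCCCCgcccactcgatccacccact
C1qc, chr4:136893082-136893129, minus strand: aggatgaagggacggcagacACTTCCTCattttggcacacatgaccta
Pf4, chr5:90772405-90772434, plus strand: tgtcattgcttctgcagagcACTTCCTCat
The Lcp1 match begins 59 bases before the start, that of C1qc 195 and that of Pf4 10. These matches describe letters in these windows and nothing about binding.

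Among the genes next to Csf1r on chromosome 18, none measured had a difference of that size. In the RefSeq order of GRCm38.p6, 4 of the 10 nearest genes, 5 on either side, had a probe set. Cdx1, an intestinal homeobox gene, had -1.01 (limma, adjusted p = 0.00113), with 179 ± 36.7 in knockouts and 374 ± 60.4 in wild-types (SD, n = 4 each). Pdgfrb, the paralogue that lies next to Csf1r, was called in the other direction at 0.40 (limma, adjusted p = 0.0228). Hmgxb3 (-0.43, adjusted p = 0.0533) and Slc6a7 (0.69, adjusted p = 0.152) did not pass.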

How the data were processed

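The deposited table holds 1 signal intensity per probe set and array, on a linear scale, for 4 knockout and 4 wild-type samples. Judged from the deposited values, each array was scaled to a common mean, about 150.05 after trimming 2% at each end. The algorithm behind the signal is not given in the sources used here. Depth has no meaning for arrays, whose number limits the precision. The 64 control probe sets were left out. Values were taken as log2(signal + 16), so fold changes of dim genes are understated. The 40% of 45037 probe sets with the lowest mean were dropped, leaving 27022, of which 12% were called (limma 3.58.1 in R 4.3.3, lmFit and eBayes with intensity trend, genotype only, two-sided; calls needed an adjusted p, by Benjamini-Hochberg, under 0.05). Each gene was read from its brightest tested probe set (12838 genes, from the platform annotation). Single values were compared by exact permutation over arrays.

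Every member is described. Arrays are given one by one for Csf1r, its ligands, 4 comparators, Cd68, Lyz2, Spi1 and the called genes, and for Ctss and Ncf4, chosen after their values were seen. From other lists, up to 4 called genes are named by smallest p, or 2 where none was called, plus the 2 transcription factors called higher. Mertk is named as well, for its value in wild-type replicate 3. The enterocyte list is given by its counts and level only. The members and lists were chosen with earlier results of these data known, and the enterocyte list and PLAG1 search after values were seen. The labels do not tell litters apart, and p-values cover only how these samples vary, which may be technical. Alternatives were other filters, offsets, normalization, covariates, a replicate block, no intensity trend, the mean of all probe sets, the 6 arrays without Xist signal and arrays left out. No pairing of the samples by replicate number was seen in the values.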

Additional observations from a re-analysis of the deposited data

Results flagged for a closer look

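Of 74 groups of 4 arrays checked (37 probe sets in each genotype), 4 held an array far from the rest, and chance gives about 1 in 20. Wild-type replicate 3 was that array for 3 genes. It gave 652 for Ctss, against 1815 to 1988 in the other wild-types, 300 for Irf8, against 480 to 515, and 23 for Il34, against 32 to 34. Wild-type replicate 4 gave 164 for Cd52, against 84 to 93 in the other wild-types. The cause was not tested.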

How the results depend on the processing

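Csf1r was called lower under all 20 alternatives, with log2 fold changes of -2.59 to -2.25 and -2.498 to -2.304 with 1 array left out. Its difference from the 4 comparators kept its direction under all 13 alternatives each, while the exact p stayed at the smallest value possible and so says nothing of stability (with 1 array left out, -2.11 to -1.82 for Ptprc, -1.47 to -1.34 for Adgre1, -2.57 to -2.17 for Tyrobp and -2.14 to -1.99 for C1qb). No member was called higher in any of the 20 (range 0 to 0). The count called lower was 4, against 3 to 7 with 1 array left out, 1 once RNA integrity (3' over 5' signal) entered the model and 10 without wild-type replicate 3 and knockout replicate 4 together. With the replicate block it was 3, Ncf1 being lost (adjusted p = 0.0916) and Csf1r staying at -2.38. Arrays of the same number correlated at -0.27 to -0.01, so no pairing by number was seen. Such correlations cannot show that pairing was absent. Ncf1 also lost its call with no filter (0.0899), with the Xist covariate (0.0564) and with the mean of all its probe sets (0.125).

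Values near 0 changed sign without a call. Csf1 had 0.0089 with the Xist covariate, 0.023 in the 6 arrays without Xist signal and -0.15 to 0.11 with 1 array left out. Il34 had -0.0058 in those 6 arrays, -0.38 in the integrity model and -0.090 to 0.13 with 1 array left out. Tyrobp had 0.19 with the Xist covariate, 0.16 in the 6 arrays, 0.018 without wild-type replicate 3 and knockout replicate 4 together, and -0.13 to 0.072 with 1 array left out. The cause was not tested. Dim genes such as Il34, Cd68, Itgam and Ncf4 lie near the filter, and their log2 fold changes depend on the added 16.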
